A study of Mus musculus with 6 samples.

Results

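Ptpn3, Gng10, Tmod1, Ttc39b and Musk are genes of mouse chromosome 4, the chromosome that carries Tnc, the gene for the extracellular matrix glycoprotein tenascin-C. These 5 of the 19938 genes measured were chosen by their difference between Tnc knockout and wild type in these same arrays, 1 table row per gene, so their differences are given as a description and carry no test. Expression was measured in RNA from the lumbar spinal cord of E15.5 embryos, in 3 wild-type samples and 3 samples labelled TNC -/-, all labelled strain SV129. Each sample was hybridised to 1 whole-transcript array and called a biological replicate. The sources used here do not give the form of the Tnc allele, the litters or any difference in strain background between the groups. In bulk tissue, fewer cells of a type and less RNA per cell cannot be told apart.

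In the knockout arrays Ptpn3, Gng10 and Ttc39b were higher than in every wild-type array, and their group means differed by 0.27 to 0.32 log2 units. Tmod1 was lower than in every wild-type array, and its group means differed by 0.35. Musk lay at background signal in all 6 arrays and differed by -0.09. The differences of Ptpn3, Tmod1 and Ttc39b were seen in the table row that stands for each gene. Further rows of the same genes differed less.

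The 5 genes have unrelated roles. Ptpn3 encodes a cytoplasmic tyrosine phosphatase with a FERM domain, which binds the membrane cytoskeleton, and a PDZ domain. Gng10 encodes a gamma subunit of heterotrimeric G proteins, which pairs with a beta subunit to carry signals from receptors at the membrane. Tmod1 encodes tropomodulin 1, which caps the slow-growing end of actin filaments in muscle, red blood cells and neurons. Ttc39b encodes a tetratricopeptide repeat protein known for promoting the turnover of LXR, the sterol-sensing nuclear receptor. Musk encodes the receptor tyrosine kinase through which agrin from motor axons gathers acetylcholine receptors at the neuromuscular junction, and its known site of action is skeletal muscle.

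The stretches of 250 bases before the start of 3 members are printed below. Those of Tmod1 and Ttc39b hold several GC boxes and that of Musk none. Musk is printed because its signal lay at background, and Tmod1 and Ttc39b because they hold the most GC boxes and differed in opposite directions. The sequences are those of RefSeq on GRCm38.p6, read 5′ to 3′ on the strand of the gene, and all 5 members matched an entry. No build is named for the array values. Capitals mark the GC box, GGGCGG or CCGCCC on the other strand, and the E box CAGCTG, which reads the same on both strands.
Musk, chr4:58285712-58285961, plus strand: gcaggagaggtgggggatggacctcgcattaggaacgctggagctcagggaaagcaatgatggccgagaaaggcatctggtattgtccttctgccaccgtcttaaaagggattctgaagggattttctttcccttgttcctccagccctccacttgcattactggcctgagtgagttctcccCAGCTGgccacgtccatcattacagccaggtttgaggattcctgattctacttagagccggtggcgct
Tmod1, chr4:46038972-46039221, plus strand: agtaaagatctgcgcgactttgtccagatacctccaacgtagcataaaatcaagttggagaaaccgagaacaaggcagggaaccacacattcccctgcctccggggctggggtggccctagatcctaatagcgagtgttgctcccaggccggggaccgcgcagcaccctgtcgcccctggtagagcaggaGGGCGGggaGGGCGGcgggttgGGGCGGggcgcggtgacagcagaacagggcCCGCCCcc
Ttc39b, chr4:83324190-83324439, minus strand: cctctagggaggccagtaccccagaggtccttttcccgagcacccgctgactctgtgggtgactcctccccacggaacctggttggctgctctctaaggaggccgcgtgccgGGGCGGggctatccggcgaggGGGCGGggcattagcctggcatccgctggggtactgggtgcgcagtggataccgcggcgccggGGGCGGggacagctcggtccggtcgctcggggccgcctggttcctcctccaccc

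The Musk stretch held no GC box and 1 E box, whose first base lies 68 bases before the start. The Tmod1 stretch held 4 GC boxes and that of Ttc39b 3. Gng10 held 1 GC box and Ptpn3 none, and neither held the E box. No member held TATAAA, or TTTATA on the other strand. Matches of different motifs shared no bases. Over the 32851 windows of this length in the RefSeq table, 32.7% held a GC box, 13.0% the E box and 12.4% the TATA motif. CpG dinucleotides numbered 22 in Ttc39b, 18 in Gng10, 17 in Tmod1, 12 in Ptpn3 and 7 in Musk, against a median of 6 over all windows. These letters describe the windows and say nothing on which factors bind there.

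Ptpn3, the FERM-domain phosphatase, read 8.46, 8.57 and 8.54 in the wild-type arrays on the log2 scale. It read 8.83, 8.81 and 8.90 in the knockout arrays. The groups lay apart, with 0.24 log2 units between the highest wild-type and the lowest knockout array. The wild-type mean was 8.53 ± 0.06 and the knockout mean 8.85 ± 0.05 (SD, n = 3 each). The difference of 0.32, with a standard error of 0.07, puts the knockout at 125% of wild type. Of all genes, 0.512% differed by at least as much in either direction.

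Gng10, the G protein gamma subunit, read 9.07, 9.00 and 9.06 in wild type and 9.34, 9.27 and 9.31 in knockout. It had the smallest spread of the 5 over both groups together, with an SD of 0.04 in each (n = 3), and a gap of 0.20 between the groups. The means were 9.04 and 9.31. Knockout minus wild type was 0.27 (standard error 0.07), or 120% of wild type.

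Ttc39b, the LXR regulator, read 8.51, 8.27 and 8.32 in wild type and 8.71, 8.71 and 8.58 in knockout. Wild-type replicate 1 lay above its group, and only 0.07 log2 units separated it from knockout replicate 3. The means were 8.36 ± 0.13 and 8.67 ± 0.07 (SD, n = 3 each), and knockout exceeded wild type by 0.30 (standard error 0.09), or 123% of wild type. The same wild-type array had the highest Tnc and the lowest Ptpn3 of its group.

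Tmod1, the actin filament capping protein, read 7.74, 7.75 and 7.63 in wild type and 7.27, 7.41 and 7.39 in knockout. All 3 knockout arrays were lower, with a gap of 0.21. The means were 7.70 ± 0.07 and 7.36 ± 0.08 (SD, n = 3 each). The difference of -0.35, with a standard error of 0.08, puts the knockout at 78.6% of wild type. Tmod1 was the lower-going member with signal above background.

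Musk, the agrin receptor kinase, read 5.57, 5.56 and 5.69 in wild type and 5.54, 5.52 and 5.48 in knockout. The groups did not overlap, but by 0.02 log2 units, less than the SD of either group (0.07 and 0.03, n = 3 each). All 6 values lay under 6.14. That level, taken as a background guide, is the 95th percentile over 1190 genes for olfactory or vomeronasal receptors. Knockout minus wild type was -0.09 (standard error 0.07), and 26.4% of all genes differed by at least as much. Without wild-type replicate 3 it was -0.05. The row thus gives no measure of Musk above background.

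Tnc itself read 10.72, 10.22 and 10.02 in wild type and 9.64, 9.76 and 9.47 in knockout, a difference of -0.69 with a standard error of 0.17. Its wild-type arrays spread over 0.70 log2 units, against 0.08 to 0.25 for the 5 genes in the same arrays. The sources used here do not give which part of the gene the Tnc row covers.

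Against the background of all genes, limma with Benjamini-Hochberg adjustment called 0 of 19938, or 0%, at an adjusted p of 0.05, and 339 genes had an unadjusted p under 0.05. Groups lay apart with knockout higher for 634 genes, or 3.18%, and with knockout lower for 527, or 2.64%. All 5 members lay apart, 3 higher and 2 lower, but they were chosen from this contrast, so that count supports nothing. The groups also differed in embryo sex. Xist, the X-inactivation transcript, read 5.44 and 5.38 in knockout replicates 1 and 3 and between 11.60 and 12.25 in the other 4 arrays, and Uty, Kdm5d and Eif2s3y, on the Y chromosome, averaged 8.20 and 7.86 in those 2 arrays and 4.32 to 4.48 in the other 4. Knockout replicate 2, which shares the wild-type pattern, read 8.81 for Ptpn3, 9.27 for Gng10, 8.71 for Ttc39b and 7.41 for Tmod1. These lie on the knockout side, as every knockout array does in genes whose groups lie apart, so they say nothing on sex. A fit with a term for Y-linked signal gave 0.28 for Ptpn3, 0.23 for Gng10 and 0.34 for Ttc39b. It gave -0.29 for Tmod1 and -0.09 for Musk, and rests on knockout replicate 2 as the 1 knockout array without Y-linked signal.

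**Figure D1:**
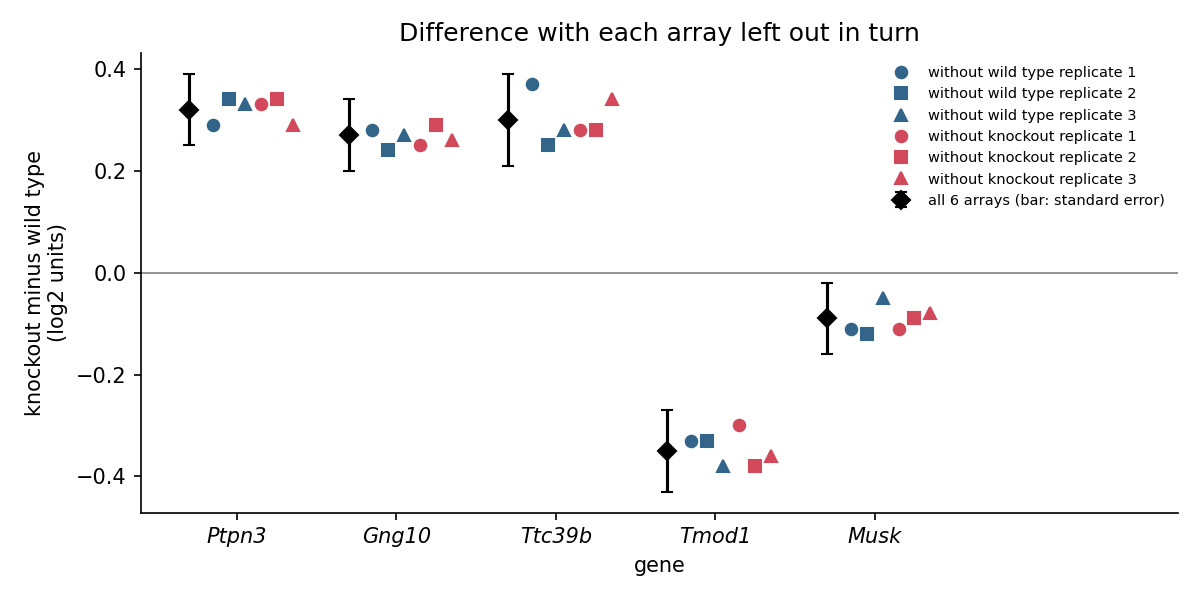
Difference between knockout and wild type in log2 units for each of the 5 genes, with all 6 arrays (black, bar: standard error) and with each array left out in turn. Ttc39b runs from 0.25 to 0.37, and Musk from -0.12 to -0.05.

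Since the groups of all 5 genes lie apart, leaving out an array could change the size of a difference but not its direction. Ptpn3 ran from 0.29 to 0.34, Gng10 from 0.24 to 0.29, Ttc39b from 0.25 to 0.37 and Tmod1 from -0.38 to -0.30. Ttc39b was lowest without wild-type replicate 2 and highest without wild-type replicate 1.

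Further table rows of the same genes were a second reading of the same samples. The annotation gave Ptpn3 12 rows, Tmod1 and Ttc39b 2 each, and Gng10 and Musk 1. The sources used here do not give where in the genes these rows lie. Of the 11 further rows of Ptpn3, 10 were higher in knockout and 1 lower, with differences from -0.02 to 0.25 and a median of 0.09. Groups lay apart in 1 of the 11, which differed by 0.08. The row of second highest level read 8.59, 8.52 and 8.61 in wild type and 8.51, 8.73 and 8.71 in knockout. Knockout replicate 1 was there the lowest of all 6 arrays, although in the row that stands for the gene it lay above every wild-type array.

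The second row of Tmod1 read 6.68, 7.21 and 7.50 in wild type and 6.95, 7.18 and 7.18 in knockout, a difference of -0.03. Wild-type values there spread on both sides of all knockout values, so the groups overlapped fully. That row is annotated with 1 accession and the first with 5. The second row of Ttc39b read 7.57, 7.26 and 7.09 against 7.47, 7.50 and 7.29, a difference of 0.11 with overlap. Between the 2 rows of highest level the differences were 0.24 apart in Ptpn3, 0.32 in Tmod1 and 0.19 in Ttc39b. Over all 999 genes with several rows that distance had a median of 0.05 and a 90th percentile of 0.17, but the members were chosen on their first rows, which bears on the distance. Averaged over rows, Ptpn3 differed by 0.12, Tmod1 by -0.19 and Ttc39b by 0.21, and the groups of Tmod1 and Ttc39b then overlapped.

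**Figure D2:**
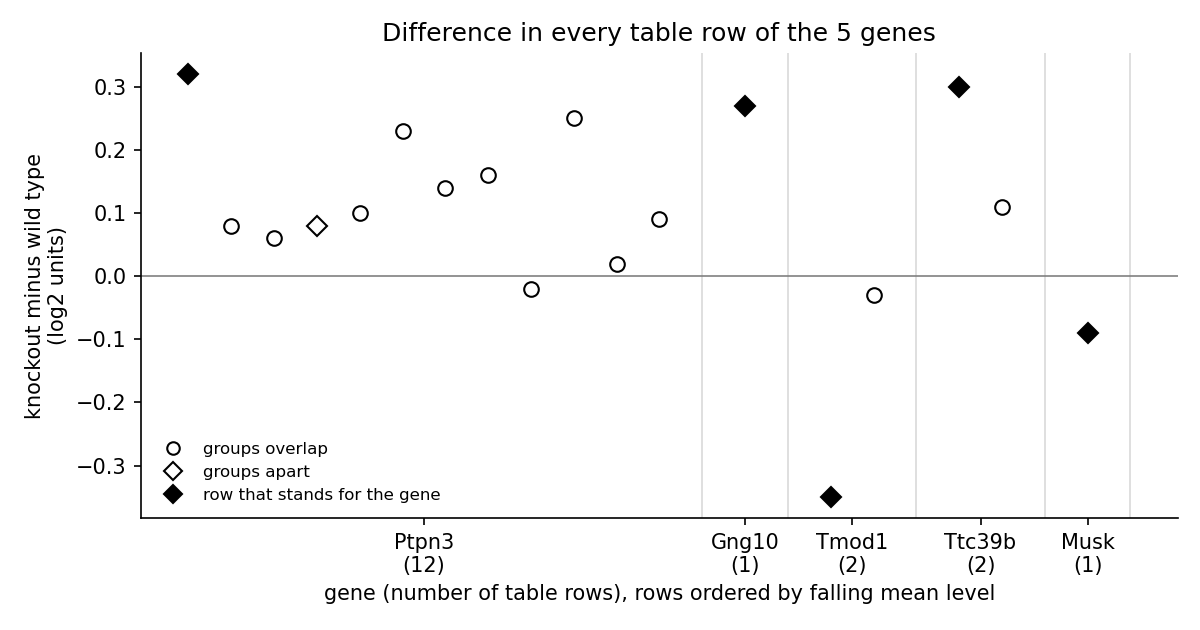
Difference between knockout and wild type in log2 units for every table row of the 5 genes, ordered within each gene by falling mean level; diamonds are rows whose groups lie apart, and filled diamonds the row that stands for the gene. The filled Ptpn3 point at 0.32 lies above its 11 further rows, and the second Tmod1 row lies at -0.03.

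On chromosome 4 the members lie on both sides of Tnc. In the order of the RefSeq gene table, Tmod1 comes first, followed after 63 measured genes by Ptpn3, after 5 more by Musk and after 6 more by Gng10. Tnc follows Gng10 after 42 measured genes, and Ttc39b lies beyond Tnc after 25. Of the 1154 measured genes of the chromosome, 43 lay apart with knockout higher, or 3.73%, and 36 with knockout lower, or 3.12%. The stretch from Tmod1 to Ttc39b holds 147 measured genes. Setting aside the members and Tnc, 15 of its other 141 genes lay apart, 8 higher and 7 lower, or 10.6%. The share was 5.76% over the rest of chromosome 4 and 5.76% over all other chromosomes. The ends of the stretch were set by genes chosen for their difference, so these shares are counts with no test.

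**Figure D3:**
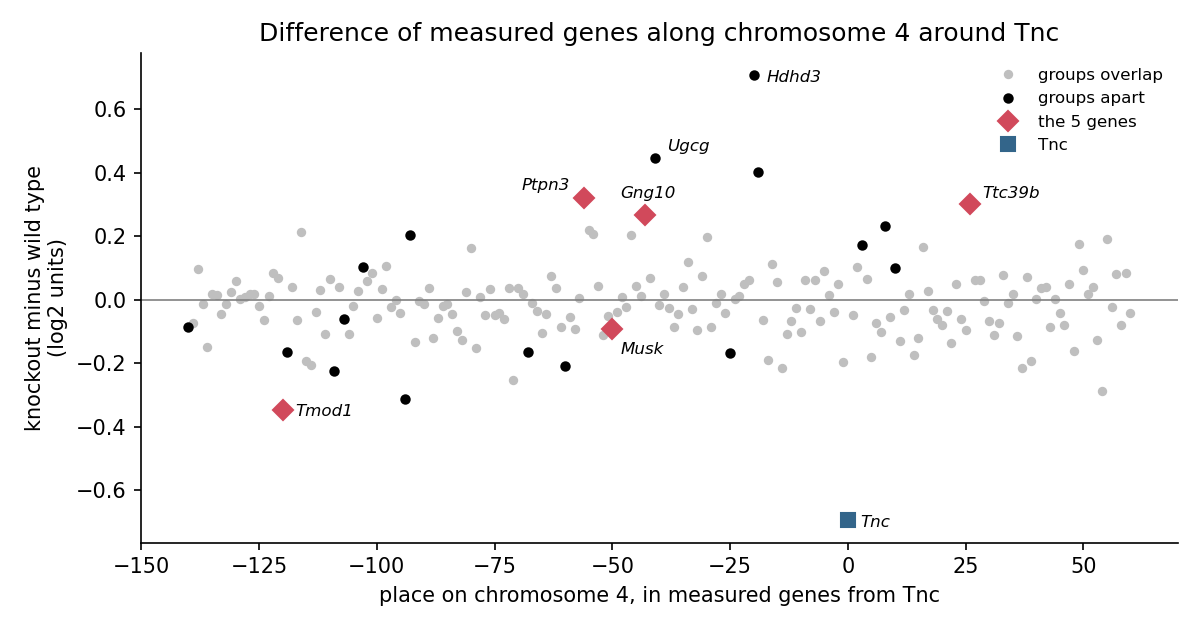
Difference between knockout and wild type in log2 units for measured genes in the part of chromosome 4 around Tnc, placed by their order from Tnc. Grey points have overlapping groups and black points groups that lie apart. Diamonds are the 5 genes and the square is Tnc. Of the points shown, Hdhd3, at 0.71, is the highest and Tnc, at -0.69, the lowest. The rest of the chromosome, with Uts2, is not shown.

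Of the 20 genes that are the 2 nearest measured on each side of a member, 2 had groups apart in either direction, against 5.82% of all genes. These were Ugcg, the ceramide glucosyltransferase, 2 places from Gng10, and Tstd2, next to Tmod1. Ugcg read 10.68, 10.57 and 10.59 in wild type and 11.16, 11.12 and 10.90 in knockout, a difference of 0.45. Tstd2 read 9.10, 9.15 and 9.11 against 8.99, 8.84 and 9.02, a difference of -0.17. The other 18 differed by -0.11 to 0.22.

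Beside Ptpn3, Epb41l4b differed by 0.01 and Frrs1l by -0.09, while Pakap, on the other side, differed by 0.22 and D630039A03Rik by 0.21, all with overlapping groups. Pakap read 8.17, 8.12 and 8.06 in wild type and 8.45, 8.40 and 8.17 in knockout, so that replicate 3 of the knockout touched the wild-type range. Beside Gng10, Dnajc25, a DnaJ family gene, differed by 0.01, Ptgr1 by 0.04 and Shoc1, under the background guide, by 0.07. Around Tmod1, Tdrd7 differed by 0.07, Ccdc180 by 0.09 and the cap-binding protein gene Ncbp1 by 0.04. Around Musk, Svep1 differed by -0.05, the lysophosphatidic acid receptor Lpar1 by -0.04, Txndc8 by -0.11 and Olfr267 by 0.01. Around Ttc39b, Frem1 differed by -0.10, Cer1 by -0.06, and Snapc3 and Psip1 by 0.06 each. The 3 chromosome 4 genes of largest difference with groups apart, other than the members and Tnc, were Hdhd3 at 0.71, Uts2, the urotensin 2 gene, at 0.50 and Ugcg at 0.45. Uts2 lies 727 measured genes from Tnc, far outside the stretch of the members.

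Relatives and partners of the 5 proteins were taken as 5 lists, with 80 of 84 listed genes measured. Together 40 were higher and 40 lower, and limma called 0 of them after adjustment over all genes, with 0 at an unadjusted p under 0.05. Their differences ran from -0.18 to 0.18. Groups lay apart in 9 of 80, or 11.2%, 6 higher and 3 lower, against 5.82% of all genes. In each of these 9 the gap between the groups was at most 0.04 log2 units. Over all genes 9260 were higher and 10678 lower, and the median difference was -0.01.

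Among G protein subunits, 8 of 16 were higher and 8 lower, with a median near 0. Gng2 read 12.46, 12.42 and 12.56 in wild type and 12.63, 12.63 and 12.60 in knockout, and Gng4 differed by 0.16, both with knockout values above all wild-type values. Gngt2, under the background guide, differed by -0.16. The beta subunits Gnb1 and Gnb2, partners of the gamma chains, differed by 0.01 and 0.03.

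Tropomodulins and actin filament partners had 6 of 17 members higher and 11 lower, at a median of -0.02. Tmod2, the neuronal tropomodulin, differed by -0.01 and the widely expressed Tmod3 by 0.01, both with overlapping groups. The genes of smallest p were the tropomyosin Tpm2 (-0.14), the adducin Add3 (0.13) and the leiomodin Lmod1 (-0.18). Among non-receptor tyrosine phosphatases 8 of 16 were higher and 8 lower. Ptpn4, the nearest relative of Ptpn3, read 9.87, 9.59 and 8.90 in wild type and 9.48, 9.48 and 9.33 in knockout, a difference of -0.02. Its wild-type SD of 0.50 far exceeds that of Ptpn3. Ptpn14 differed by 0.14, Ptpn21 by -0.11 and Ptpn13 by -0.11.

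TTC39 family and LXR lipid genes had 9 of 14 members higher and 5 lower, at a median of 0.02. Mylip, an LXR target that degrades the LDL receptor, read 8.76, 8.80 and 8.85 in wild type and 8.88, 9.04 and 9.00 in knockout. Its difference of 0.17 had the smallest unadjusted p of all 5 lists, 0.0506 in limma. The LXR targets Abca1 and Pltp differed by -0.04 and 0.16, Lpcat3 by 0.12, and the LXR gene Nr1h3 by -0.06. The relatives Ttc39a and Ttc39c differed by 0.04 and -0.04.

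MuSK partners and postsynaptic muscle genes had 9 of 17 members higher and 8 lower, at a median of 0.02. Agrn, the agrin gene, differed by 0.02, the co-receptor Lrp4 by -0.13 and the adaptor Dok7 by -0.06. The acetylcholine receptor subunits Chrnb1 and Chrng, above the background guide in all 6 arrays, differed by 0.02 and -0.00. Chrne, at or under the guide in 2 arrays, differed by -0.04, and Chrna1 and Chrnd, at or under it in all 6, by -0.06 and -0.08. Ache, the acetylcholinesterase, read 9.71, 9.92 and 10.05 in wild type and 10.07, 10.06 and 10.06 in knockout, and its collagen tail Colq differed by 0.18.

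Skeletal muscle expresses Musk and Tmod1, and red blood cells Tmod1, so markers of these cells are given beside them. Of 20 skeletal muscle markers, 12 lay above the background guide, and Myf5, Myf6, Myh3, Tnnt1, Mylpf, Myl1, Ttn and Des did not. Their summed linear signal ran from 1772 to 2239 in wild type and from 1961 to 2085 in knockout, with 11 higher and 9 lower. Of 17 erythroid markers 9 were measured, 2 higher and 7 lower, with sums from 2087 to 2532 and from 1926 to 2582. For both lists the knockout range overlapped that of wild type. Radial glia and neuron markers all lay above the guide in mean level, and their list medians were both 0.02. All 9 endothelial markers were higher in knockout, with a median of 0.17, and 4 of them had groups apart, against 5.82% of all genes. Their sums ran from 4125 to 4627 in wild type and from 4567 to 5128 in knockout. With the Y-linked term the endothelial median was 0.29. All 4 measured sensory ganglion markers were higher, with a median of 0.18 and 0 with groups apart. However, P2rx3 was the 1 above the background guide in mean level. The median of these markers was 0.085 without knockout replicate 2 and 0.371 with the Y-linked term. Their sums ran from 274 to 303 in wild type and from 306 to 377 in knockout, ranges that do not overlap. The groups of P2rx3 itself overlapped, with 7.29 in wild-type replicate 1 and 7.18 in knockout replicate 1. Scn10a and Trpv1 lay at or under the guide in all 6 arrays, and Avil in 3. The gap between the sums is therefore not read as more sensory neuron signal. All 9 motor neuron markers were also higher, with a median of 0.10 and 0 with groups apart, and without wild-type replicate 1 that median was -0.01. Of 7 meningeal markers 5 were lower, with a median of -0.15, which was -0.05 without knockout replicate 1, -0.23 without knockout replicate 2 and 0.01 with the Y-linked term. The meningeal marker with groups apart was Lum, which lay under the background guide in all 6 arrays and differed by -0.30. Cartilage markers had 3 of 9 higher at a median of -0.05. Microglia markers had 5 of 6 higher at a median of 0.06, which was -0.07 with the Y-linked term. The part of these cell types in the members' differences was not tested.

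The genes whose 6 values followed each member most closely are given as a description, since all share the same 6 arrays and the likeness holds the group difference. For Ptpn3 they were Npy2r (Pearson r of 0.986 over 6 arrays), Olfr1391 (0.984) and Mir29a (0.981), all under the background guide. For Gng10 they were Pik3cg (0.995), the phosphoinositide 3-kinase that G protein beta and gamma subunits activate, Adamtsl3 (0.983) and Mlc1 (0.976). Of these, Adamtsl3 lay under the background guide in all 6 arrays. Pik3cg had a wild-type mean of 6.71 ± 0.01 and a knockout mean of 6.79 ± 0.01 (SD, n = 3 each), a smaller step than that of Gng10. For Tmod1 they were Gm10373 (0.984), under the background guide in all 6 arrays, Proz (0.974) and Pbdc1 (0.973). For Ttc39b they were Pik3c3 (0.990), Astn2 (0.987), a gene of chromosome 4 as well, and Doc2b (0.986). For Musk they were Olfr1121 (0.993), Rfpl4 (0.989) and Haspin (0.985), all at background like Musk itself.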

How the data were processed

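The 6 arrays were compared as 3 wild-type and 3 knockout samples. The authors deposited log2 values from RMA, named without a version in the submitters' processing notes. RMA corrects background, equalises the arrays and summarises probes, which compresses small differences. Of 35557 table rows, 21789 had exactly 1 gene symbol, updated through entrez identifiers against RefSeq GRCm38.p6 (19856 of 19938 genes matched). That table gave names, chromosomes and gene order. For genes with several rows the row of highest mean over the 6 arrays was used, with no filter on dim genes. Differences and standard errors came from limma 3.58.1 in R 4.3.3 (lmFit, eBayes) fitted on all genes with group as its only term, with Benjamini-Hochberg adjustment over all genes at 0.05. The fit was tested on simulated data. Groups lie apart where all 3 knockout values lie above or below all 3 wild-type values.

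The members, lists and alternatives were chosen with earlier results of these data known. Genes named are the members, the 2 nearest measured genes on each side, the 3 genes most like each member, the 3 of smallest p per list, the 3 largest on chromosome 4, Tnc, Xist and Y-linked genes; list members beyond these were named after their values were seen. Alternatives were each array left out, a block for the replicate number, an intensity trend, array weights, 2 filters by level, renewed quantile normalization, median centring, the mean of a gene's rows and a term for Y-linked signal. The number of arrays limits the precision. The sources used here give no scan dates.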

Additional observations from a re-analysis of the deposited data

How the results depend on the processing

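No alternative turned the direction of a member, which neither leaving out an array nor the replicate block could do. The mean of a gene's rows moved Ptpn3 to 0.12 and Tmod1 to -0.19, by construction, since it adds rows that differed less. Array weights, whose estimate stopped before it converged, gave 0.27 for Ptpn3, 0.40 for Ttc39b and -0.05 for Musk, and the Y-linked term gave 0.23 for Gng10. Renewed quantile normalization made the Musk groups overlap, at -0.07. Ranges with each array left out stand in the report. The count of genes past an adjusted p of 0.05 in limma was 0 in all alternatives but the fit without knockout replicate 2, where it was 4 (range 0 to 4). The knockout arrays left in that fit carried Y-linked signal and the wild-type arrays did not, so genotype and sex cannot be told apart there.

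With each array left out, genes with groups apart numbered 1210 to 2631 higher and 982 to 2053 lower. On chromosome 4 they numbered 75 to 156 and 57 to 135, since fewer arrays separate more easily. In either direction they made up 11.0% to 23.5% of all genes, against 5.82% with all 6 arrays. Without wild-type replicate 3 the counts were highest, at 2631 and 2053. With genes below the 25th percentile removed, 348 were lower, or 2.33% of the genes kept, against 2.64% of all genes. With those under the median removed, 407 were higher and 239 lower, from fewer genes tested. Of the genes kept these were 4.08% and 2.4%, against 3.18% and 2.64% of all genes. On chromosome 4, 20 were then lower, or 3.21%, against 3.12% with no filter. Filters dropped Musk, and the median filter also Tmod1.

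With the replicate block 0 genes passed. The differences were those of the main fit (0.32 for Ptpn3, -0.35 for Tmod1) by construction, since each number holds 1 array of each group. Samples of the same number correlated in their deviations from the group means at 0.35, -0.07 and 0.45 for numbers 1, 2 and 3. Samples of different numbers correlated at -0.47 to 0.28. With 3 arrays a group these values cannot tell whether the numbers pair the samples. The medians of 4 of the 5 partner lists, and those of the muscle, erythroid, cartilage, motor neuron, radial glia and neuron markers, changed sign with some array left out, and no direction is read from them. The medians of the meningeal and microglia markers changed sign with the Y-linked term, and no direction is read from these either. At 3 arrays a group the spread limits what can be told, and signal at background limits Musk.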
